A study of Mus musculus with 2931 samples.

Results

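The 51 mitosis genes described here are genes of cell division, chosen by symbol from published knowledge of mitosis. Earlier results of these data were known when they were chosen. All 51 were among the 18072 gene symbols of the count table. They comprise 9 genes of entry into mitosis, 4 of the chromosomal passenger complex, 8 of the spindle checkpoint and anaphase, 7 of the centromere and kinetochore, 10 kinesins and other spindle genes, 6 of the central spindle and cytokinesis, and 7 of chromosome structure. The study read their mRNA in 2931 single endothelial cells (EC), which form the inner wall of blood and lymphatic vessels, from distal lung of mice. Each cell was sorted by antibody into a well of a plate, and its full-length cDNA was cut with the Tn5 transposase and sequenced without molecular identifiers. The cells came from 10 mice, 1 female and 1 male in each of 5 groups. Normal air was the condition for the late embryo (E18.5) and for postnatal days 1, 7 and 21 (P1, P7, P21), and the remaining group was P7 in hyperoxia, meaning raised oxygen in the breathing gas. Genotype, strain, oxygen level and the days of exposure are not given in the sources used here, nor whether each named mouse was a single animal or pooled animals. The authors labelled each cell with 1 of 10 subtypes, among them Proliferative EC (390 cells with enough reads for the per-cell counts) and Proliferative venous EC (10 cells).

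As background, a cell enters mitosis when cyclin B and its kinase Cdk1 become active. The chromosomes are then condensed, attached by their kinetochores to a spindle of microtubules, held by a checkpoint until every chromosome is attached, and pulled apart before the cell cleaves at its middle. Most of these genes are transcribed late in the cell cycle, through promoters that often carry a CCAAT box and a cell cycle genes homology region (CHR), and they are largely silent in resting cells. Lung endothelium divides during the growth of the capillary bed before and after birth and is mostly quiescent in the grown animal.

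The promoters of 5 members are shown because the results below turn on these genes: Top2a and Kif15 differed between E18.5 and P1, Ncapd2 between P7 and P21, Cdc20 outside the proliferative labels, and Ncaph was read mostly in cells that were not labelled proliferative. Each stretch holds 170 bases before and 30 bases after the RefSeq start of the gene (build GRCm38.p6), 5′ to 3′ on the strand of the gene, and capitals mark every TTTGAA (the core of the CHR) and CCAAT on either strand. Top2a lies at chr11:99024160-99024359 on the minus strand, Kif15 at chr9:122950911-122951110 on the plus strand, Ncapd2 at chr6:125191557-125191756 on the minus strand, Cdc20 at chr4:118437314-118437513 on the minus strand and Ncaph at chr2:127133925-127134124 on the minus strand.
Top2a: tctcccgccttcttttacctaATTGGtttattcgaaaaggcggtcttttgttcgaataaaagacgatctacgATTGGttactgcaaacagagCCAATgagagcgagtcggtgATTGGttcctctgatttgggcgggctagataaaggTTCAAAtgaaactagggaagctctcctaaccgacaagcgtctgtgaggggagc
Kif15: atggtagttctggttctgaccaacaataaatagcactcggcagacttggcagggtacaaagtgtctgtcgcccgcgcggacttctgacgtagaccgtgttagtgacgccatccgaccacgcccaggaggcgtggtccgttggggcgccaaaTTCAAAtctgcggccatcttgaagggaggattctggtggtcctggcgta
Ncapd2: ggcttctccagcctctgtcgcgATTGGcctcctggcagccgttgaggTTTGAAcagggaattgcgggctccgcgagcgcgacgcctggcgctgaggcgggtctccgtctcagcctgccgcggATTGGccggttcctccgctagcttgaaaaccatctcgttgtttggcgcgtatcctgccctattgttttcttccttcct
Cdc20: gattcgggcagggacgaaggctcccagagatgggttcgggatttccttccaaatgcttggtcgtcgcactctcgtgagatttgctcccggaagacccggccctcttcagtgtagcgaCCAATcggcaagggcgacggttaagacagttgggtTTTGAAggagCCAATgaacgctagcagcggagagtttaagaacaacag
Ncaph: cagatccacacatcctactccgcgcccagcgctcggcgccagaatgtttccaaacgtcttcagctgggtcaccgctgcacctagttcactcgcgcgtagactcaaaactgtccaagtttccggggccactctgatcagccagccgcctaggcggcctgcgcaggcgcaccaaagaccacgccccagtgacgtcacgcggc

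Top2a held 1 TTTGAA and 4 CCAAT in the printed window, Kif15 held 1 and 0, Ncapd2 held 1 and 2, Cdc20 held 1 and 2, and Ncaph held 0 and 0. The RefSeq table had 46 promoters, of 300 bases each, for 43 of the 51 members. TTTGAA or its reverse complement was in 37 of these 46 promoters (80.4%), against 17.9% of all 32851 promoters of the table. CCAAT or its reverse complement was in 36 of the 46 (78.3%), against 37.4% of all promoters. Both were in 69.6% of the members' promoters and in 6.95% of all. The members' TTTGAA lay near the start: 71.7% of their promoters had one that began in the 50 bases before or the 50 bases after it, against 4.94% of all promoters. In the 50 bases farthest from the start the shares were 4.35% and 4.07%. A match is a description of the letters and shows neither binding nor use of the site.

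The table held 2062278606 reads, 8457630 of them (0.410%) in the 51 members, and a cell had from 42095 to 2967985 reads with a median of 621406. To compare cells, each was thinned to 50000 reads, which left out 11 shallower cells. The summed level of 8 endothelial markers lay between 10330 and 13930 counts per 1000000 reads (CPM) in the 10 mice, and immune markers did not pass 54.7 CPM. Epithelial markers stood at 126 CPM in the male P21 mouse, 97.6 CPM in the female E18.5 mouse and no more than 83.4 CPM elsewhere. Mesenchymal markers stood at 253 CPM in the male P7 mouse and at no more than 67.0 CPM in the other 9 mice; its part in the results was not tested. The sort gate was CD31 (an endothelial surface protein) for 2694 cells, mesench for 224 and CD45 for 13. The gates were not spread evenly over the ages. CD31 was the gate of 282 of 348 and 238 of 359 cells in the female and male P21 mouse. At P7 in normal air it was the gate of 320 of 343 and 200 of 212 cells. Sums over all cells therefore mix gates unevenly between P7 and P21. The cell titles carry 9 codes such as DC21, called runs here, and the titles do not say what they stand for. The CD31-gate cells of no P1 mouse shared a run with those of a P7 mouse. Values within a run below use CD31-gate cells. Sums over all cells of a mouse cannot tell fewer dividing cells from less RNA per dividing cell.

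Most reads of the mitosis genes sat in few cells. Cells with either proliferative label held 15.2% of all reads of the table but 80.9% of the reads of the 51 members. The median member had 90.0% of its reads in these cells, and 44 members had over 80%. The labels may rest on these same genes, so the split is a description and was not tested. The highest shares were those of Ube2c, the ubiquitin-conjugating enzyme of the anaphase-promoting complex (96.4%), Hmmr, a spindle assembly factor (96.3%), Cdc25c, the phosphatase that activates Cdk1 (95.5%), Nusap1, which bundles spindle microtubules (95.2%), and Prc1, which bundles the microtubules of the central spindle (93.6%).

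**Figure D1:**
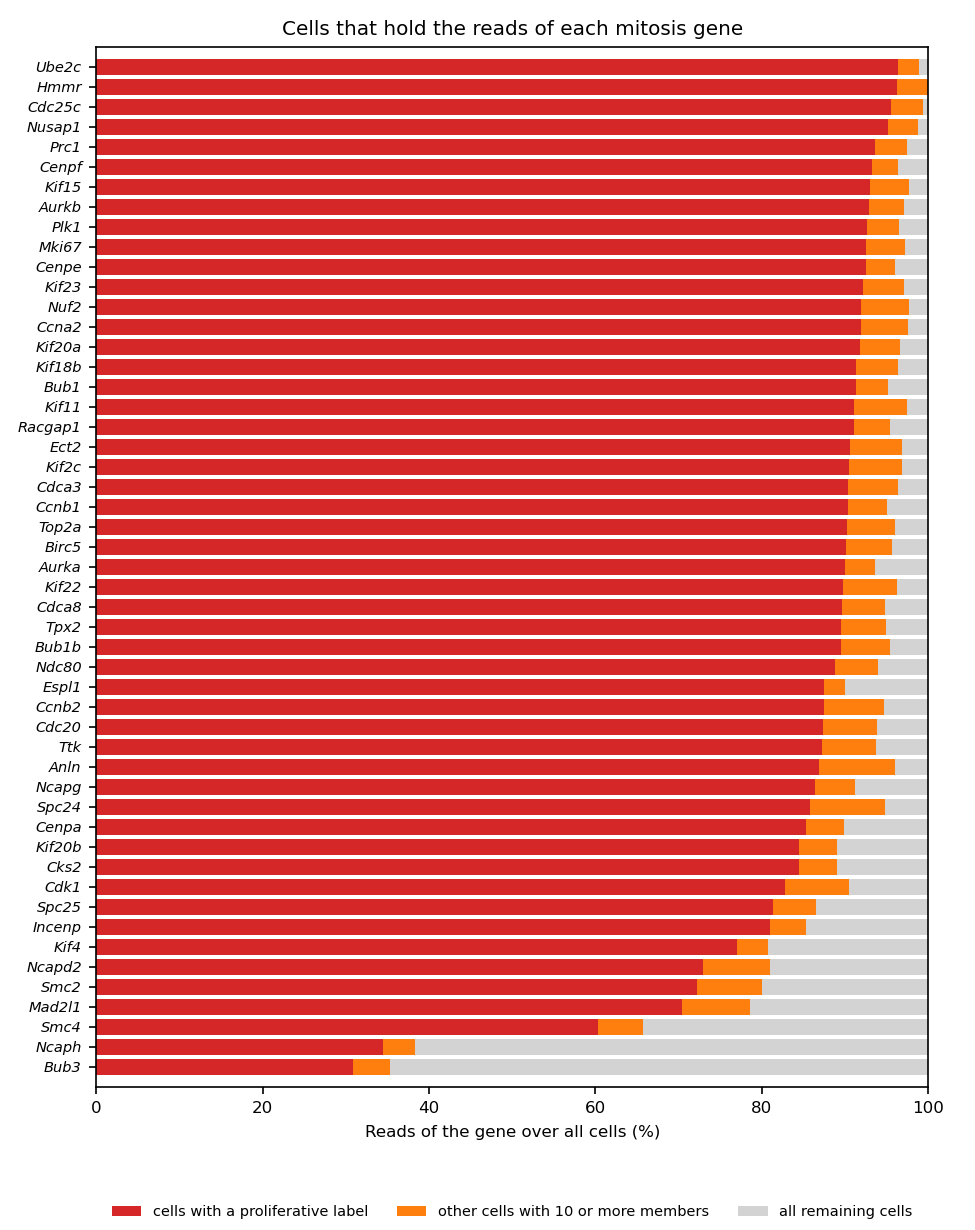
Share of each gene's reads, in percent of its reads over all cells (x axis), that lay in cells with a proliferative label (red), in other cells with 10 or more of the 51 genes (orange) and in all remaining cells (grey), 1 bar per gene. Ube2c is highest at 96.4% and Bub3 lowest at 30.8%; only Bub3 and Ncaph are below 50%.

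A few members departed from this pattern. Bub3, a checkpoint protein that also acts in interphase, had 30.8% of its reads in proliferative cells, and Ncaph, the kleisin subunit of condensin I, had 34.4%. Smc4 (60.3%) and Smc2 (72.2%), the ATPase pair shared by both condensins, and Mad2l1, a checkpoint protein (70.4%), came next from below, followed by the condensin I subunit Ncapd2 (73.0%). At 50000 reads, a Bub3 read was found in 81.2% of the 400 proliferative cells and in 50.8% of the 2417 other cells with fewer than 10 members. For Smc4 these shares were 92.8% and 34.8%, and for Ncaph 64.5% and 23.5%. Over all members the median shares were 71.2% and 1.66%. The 533 Late Car4- capillary cells of P21 can serve as a low reference (median depth 482484 reads before thinning, against 684379 in the proliferative cells): 31.0% of them had a Bub3 read, 21.2% an Smc4 read, 0.938% a Top2a read and 0.375% a Plk1 read. At 50000 reads they had a median of 1681 detected genes, against 3096 in the proliferative cells. The part of this difference in the low shares was not tested.

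The number of members with a read separated the labels without a clean edge. A Proliferative EC cell had a median of 36 of the 51 genes (quartiles 26 and 42), and other cells a median of 2. Of the 390 Proliferative EC cells, 383 had 10 or more members, as did all 10 Proliferative venous EC cells. Among the 2520 other cells 103 did (4.09%, exact 95% interval 3.35 to 4.94%). From 8 to 12 members were read in 95 of the 2520 cells, on both sides of this line, which marks a range and not a cell type.

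**Figure D2:**
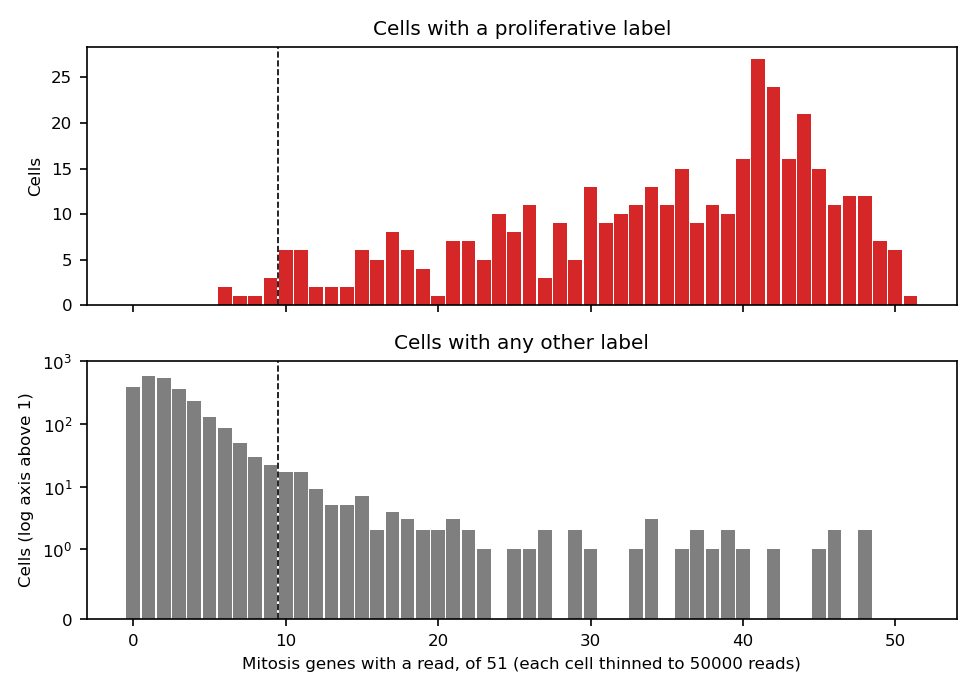
Number of cells (y axis, logarithmic above 1 in the lower panel) by how many of the 51 genes had a read at 50000 reads (x axis), for cells with a proliferative label (top) and all other cells (bottom); the dashed line marks 10 genes. Labelled cells reach 51 genes with a median of 36, and 103 cells of the lower panel lie right of the line.

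Within the 390 Proliferative EC cells the genes varied together to different degrees, as a description over cells pooled from several mice. Depth and mouse may have a part in this, which was not tested. The correlation of a member's log2 level with the number of other members read in the cell was highest for Nusap1 (r = 0.68), Cdk1 (r = 0.64) and Plk1, the polo kinase of mitotic entry and exit (r = 0.63). It was lowest for Kif11, the motor that separates the spindle poles (r = 0.22), which had only 1445 reads in the whole table. With the cells ordered by their number of other members, Plk1 was read in 14.4% of those at or below the 25th percentile and in 95.05% of those at or above the 75th. For Bub3 these shares were 61.4% and 92.0%. Cells with 40 or more members numbered 162 and had a median of 13 of 26 S phase genes, and the 55 cells with 20 or fewer members had a median of 5.

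The share of CD31-gate cells with a proliferative label is given first because it moves with every sum below. It was 40.5% and 28.4% in the female and male mouse at E18.5, 4.13% and 3.88% at P1, and 15.6% and 16.5% at P7. At P21 it was 0% (0 of 282 cells, which allows up to 1.06%) and 2.52%. In hyperoxia at P7 it was 14.7% and 13.8%.

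Over all endothelial cells the mitosis genes were highest at E18.5, low at P1, intermediate at P7 and low at P21. P21 was not tested against P1. The male P21 mouse was above both P1 mice in some members, such as Spc25 (60.4 against 29.7 and 28.6 CPM). In others it was below both, such as Top2a (38.8 against 84.9 and 114 CPM). All 51 members had a lower fitted level at P1 than at E18.5, a higher one at P7 than at P1, and a lower one at P21 than at P7. An E18.5 mouse was the highest of the 10 mice for 49 members, and the female P21 mouse the lowest for 45. In edgeR's quasi-likelihood test with Benjamini-Hochberg adjustment over 16348 genes, 22 of the 51 differed over the 4 ages (adjusted p under 0.05), where 4.12% of all genes did. By role these were 6 of chromosome structure, 4 of the centromere and kinetochore, 4 kinesin and spindle genes, 3 of the checkpoint and anaphase, 2 of entry, 2 of the central spindle and 1 of the passenger complex. The number called fell without the female E18.5 mouse and rose without either P21 mouse. The share of all genes called in those refits is not given here.

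**Figure D3:**
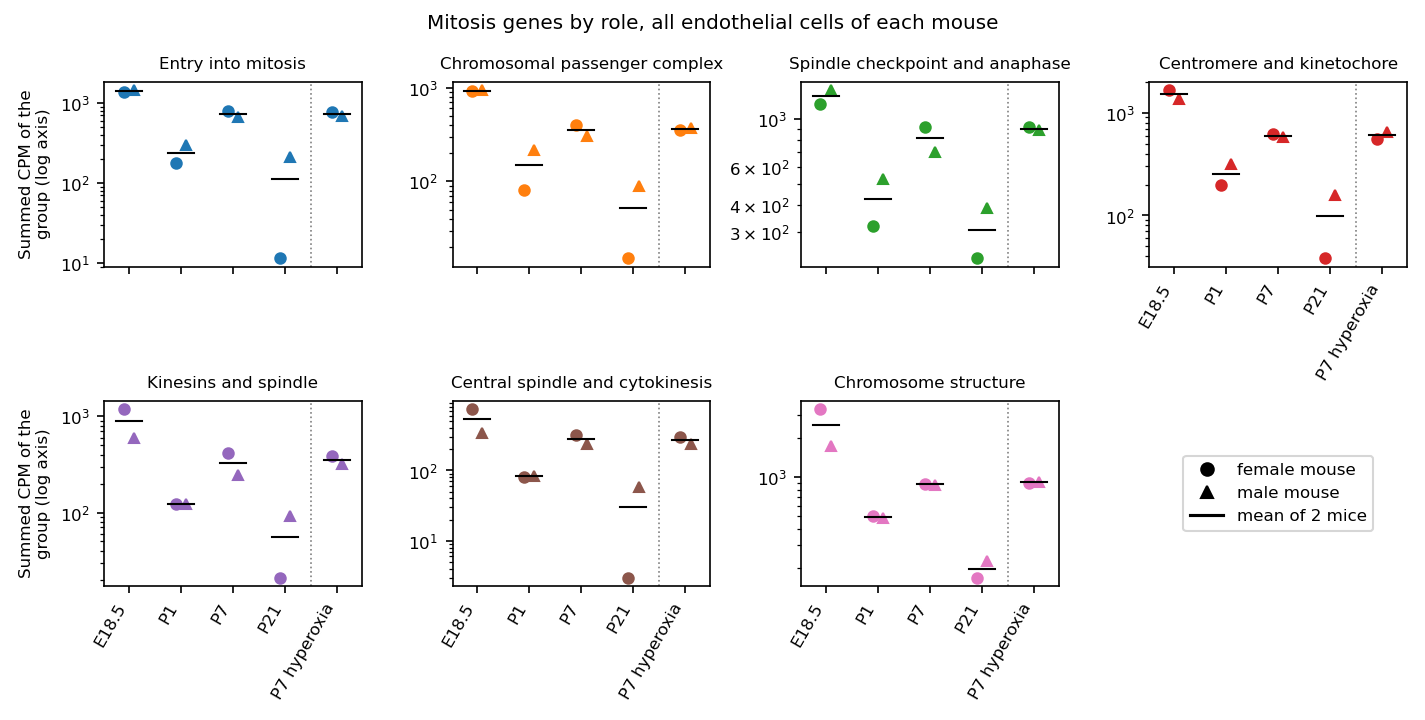
Summed CPM of the genes of each role over all endothelial cells of a mouse (y axes, logarithmic, each with its own range) by group (x axis); circles are female and triangles male mice, bars the mean of both. In each of the 7 roles both E18.5 mice lie above both P1 mice and both P7 mice above both P21 mice, while the hyperoxia mice lie beside the P7 mice.

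Of the 9 regulators of entry, Cdk1, Ccnb1 and Plk1 are given in full. Cdk1 stood at 401 and 451 CPM in the female and male E18.5 mouse, 58.3 and 108 at P1, 200 and 201 at P7, and 2.21 and 47.3 at P21. Ccnb1, the cyclin B1 that activates it, stood at 66.4 and 53.6 CPM, 8.40 and 14.6, 62.1 and 35.6, and 0.337 and 17.4 in the same order. Plk1 stood at 129 and 86.1 CPM, 14.2 and 20.4, 54.0 and 45.1, and 0.0531 and 4.04. In these 3 genes the mice of neighbouring ages did not overlap, and the female P7 mouse lay between the E18.5 mice for Ccnb1. Cks2 overlapped between P1 (13.3 and 29.1 CPM) and P7 (26.1 and 34.1 CPM), and Aurka, the centrosomal kinase, was higher in the male P21 mouse (25.45 CPM) than in both P1 mice (10.9 and 8.96 CPM). None of the 9 entry genes passed the test in a step between neighbouring ages. The change of Plk1 from P7 to P21 was -4.42 ± 1.18 (log2, SE; adjusted p = 0.110 by edgeR).

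The passenger complex carries the kinase Aurkb to the centromeres and then to the central spindle. Aurkb stood at 127 and 126 CPM at E18.5, 7.45 and 8.81 at P1, 100 and 58.6 at P7, and 0.00758 and 5.74 at P21. Birc5 (survivin), which docks the complex, stood at 341 and 480, 32.6 and 126, 170 and 147.5, and 0.0190 and 34.7 CPM. Incenp, its scaffold, changed less, with 150 and 106, 20.3 and 35.2, 37.7 and 30.3, and 15.1 and 16.95 CPM. Among these 3 genes the mice of neighbouring ages overlapped only for Incenp, between P1 and P7. Incenp alone of the 4 passenger genes differed over the ages (adjusted p = 0.00508, edgeR).

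Among the genes of the checkpoint and anaphase, Bub1b (BubR1, which holds back anaphase) stood at 58.5 and 54.2 CPM at E18.5, 5.61 and 3.61 at P1, 43.1 and 13.8 at P7, and 0.0720 and 6.47 at P21. Cdc20, the activator of the anaphase-promoting complex, stood at 147 and 239, 35.2 and 35.4, 201 and 99.4, and 0.827 and 41.4 CPM. Its P7 mice fell on both sides of the female E18.5 mouse, and the male P21 mouse was above both P1 mice. Ube2c stood at 438 and 384, 35.7 and 146, 200 and 186, and 0.311 and 39.97 CPM. Bub3 moved least of the 51 from E18.5 to P1, with 278 and 512, 213 and 307, 362 and 295, and 217 and 283 CPM, and its mice overlapped from E18.5 to P1 and from P1 to P7 but not from P7 to P21. Its change from E18.5 to P1 was -0.57 ± 0.42 (log2, SE; adjusted p = 0.736, edgeR).

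At the centromere, Cenpa, the histone H3 variant that marks it, stood at 301 and 455 CPM at E18.5, 43.5 and 121 at P1, 176 and 178 at P7, and 19.04 and 33.8 at P21. Cenpf, a late kinetochore protein, stood at 534 and 295, 36.6 and 71.6, 89.6 and 101, and 0.224 and 31.3 CPM. Ndc80, which binds the spindle microtubule, stood at 105 and 47.6, 18.4 and 14.5, 31.0 and 31.3, and 7.21 and 3.91 CPM. Each of the 3 had both E18.5 mice on top and both P21 mice at the bottom. From P7 to P21 Cenpa fell by 2.62 ± 0.53 (log2, SE; adjusted p = 0.0324) and Ndc80 by 2.41 ± 0.49 (adjusted p = 0.0322) in edgeR.

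Of the spindle genes, Tpx2, which activates Aurka, stood at 239 and 103.5 CPM at E18.5, 27.4 and 40.9 at P1, 77.9 and 50.8 at P7, and 3.13 and 19.1 at P21. Kif18b, a kinesin that trims astral microtubules, stood at 26.5 and 6.38, 1.27 and 0.928, 3.77 and 2.94, and 0.00758 and 0.411 CPM. Kif11 had 2.43 CPM or less in every mouse. Of the genes of the late division, Prc1 stood at 261 and 103, 14.7 and 39.9, 78.4 and 54.6, and 0.334 and 22 CPM. Ect2, which activates RhoA at the cleavage furrow, stood at 49.3 and 21.6, 4.90 and 7.24, 21.98 and 12.8, and 1.16 and 0.801 CPM. The female E18.5 mouse was above the male in all 5, as it was in 39 of the 51 members.

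From E18.5 to P1 the members fell by a median of 2.57 on the log2 scale, against a median change of 0.03 over all genes. In edgeR 2 of the 51 were called lower, where 0.0551% of all genes were, and none higher, where 0.434% were. An unadjusted p under 0.05 was found for 42 members, all lower, where 4.04% of all genes were lower and 5.96% higher at that level. The mice did not overlap in 49 of the 51, against 17.1% of all genes in this direction. Top2a, the topoisomerase that untangles sister chromatids (chr11:98992943-99024189), stood at 1082 and 589 CPM at E18.5 and at 84.9 and 114 CPM at P1. Both E18.5 mice lay far above both P1 mice, and the change was -3.00 ± 0.45 (log2, SE; adjusted p = 0.00823, edgeR). Kif15, a plus-end motor that backs up Kif11 (chr9:122951046-123018733), stood at 150 and 63.0 CPM and at 13.3 and 13.5 CPM, a change of -2.93 ± 0.55 (adjusted p = 0.0307, edgeR).

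This count of 2 depends on single mice. It fell without the female E18.5, the male E18.5 or the female P1 mouse, and rose without either P21 mouse. Leaving out a P21 mouse also changed the genes that passed the filter. The share of all genes called in these refits is not given here, so the rise is not a result about the members. Its cause was not tested. The female mice of E18.5 and P1 share a run, and between them all 51 members were lower at P1 with a median of -2.96.

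From P1 to P7 all 51 members were higher, by a median of 1.38 on the log2 scale, but edgeR called 0 of them, as it called 0.00% of all genes. DESeq2 called 1, and 16 had an unadjusted p under 0.05 in edgeR, where 5.71% of all genes were higher at that level. The mice did not overlap in 48 of the 51, against 20.4% of all genes. Kif20a, the kinesin that carries the passenger complex to the central spindle, went from 3.50 and 2.55 CPM to 34.6 and 13.2 CPM. Fewer members reached an unadjusted p under 0.05 with any P1 or P7 mouse left out, and more did without either P21 mouse. The share of all genes in those refits is not given here. Aurkb had a fitted difference of 3.28 ± 1.33 (log2, SE; adjusted p = 0.470, edgeR).

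From P7 to P21 all 51 members had lower fitted levels, with a median of -2.80 against -0.01 over all genes. In edgeR 13 were called lower, where 0.801% of all genes were, and none higher, where 0.257% were. An unadjusted p under 0.05 was found for 42 members, all lower, where 6.74% of all genes were lower and 4.88% higher at that level. The mice did not overlap in 50 of the 51, against 23.3% of all genes. By role the called genes were 4 of chromosome structure, 3 of the centromere and kinetochore, and 2 each of the checkpoint, the spindle and the central spindle. None was a gene of entry or of the passenger complex. P21 had more cells of other gates than P7, and fewer members were called with CD31-gate cells alone. The share of all genes called in that refit is not given here.

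Kif15 stood at 44.6 and 25.02 CPM at P7 and at 1.00 and 1.70 CPM at P21, a fall of 4.57 ± 0.59 (log2, SE; adjusted p = 0.00191, edgeR). Ncapd2 (chr6:125168007-125191701), which ties condensin I to chromatin, stood at 67.8 and 54.9 CPM and at 1.98 and 4.20 CPM, a change of -4.185 ± 0.52 (adjusted p = 0.00191, edgeR). Another condensin I subunit, Ncapg (chr5:45669919-45700546), went from 51.6 and 19.9 CPM to 1.86 and 2.13 CPM. In these 3 genes both P21 mice were under 5 CPM and both P7 mice above 15 CPM.

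Nusap1 (chr2:119618298-119651244) went from 63.8 and 49.7 CPM to 0.971 and 4.75 CPM. Anln (chr9:22332012-22389188), the anillin scaffold of the cleavage furrow, went from 31.9 and 28.3 CPM to 0.406 and 3.53 CPM. Cenpe (chr3:135212537-135273611), the kinetochore motor that aligns chromosomes, went from 66.7 and 73.2 CPM to 2.52 and 10.1 CPM. The edgeR changes and adjusted p of Ncapg, Nusap1, Anln and Cenpe were -4.08 (0.00604), -4.16 (0.00893), -3.77 (0.0465) and -3.31 (0.0194). Mki67, the Ki-67 sheath protein of mitotic chromosomes, went from 130 and 95.8 CPM to 0.997 and 17.1 CPM without passing the test (adjusted p = 0.122). Smc4 went from 177 and 206.5 CPM to 80.8 and 99.9 CPM, a change of -0.97 ± 0.33 (adjusted p = 0.252, edgeR).

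The 2 P21 mice differed from each other. In 47 of the 51 members the male was the higher, 28 members were under 1 CPM in the female and 5 in the male. The male had 7 Proliferative EC cells, 6 of them of the CD31 gate, and the female had 0. The median change of the members was -5.87 without the male P21 mouse and -1.92 without the female. The number of members called rose without the male P21 mouse and fell without either P7 mouse. The share of all genes called in those refits is not given here. The male P7 and P21 mice share a run: between them 48 members were lower at P21, by a median of -1.32, while the median over all genes was -0.17.

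**Figure D4:**
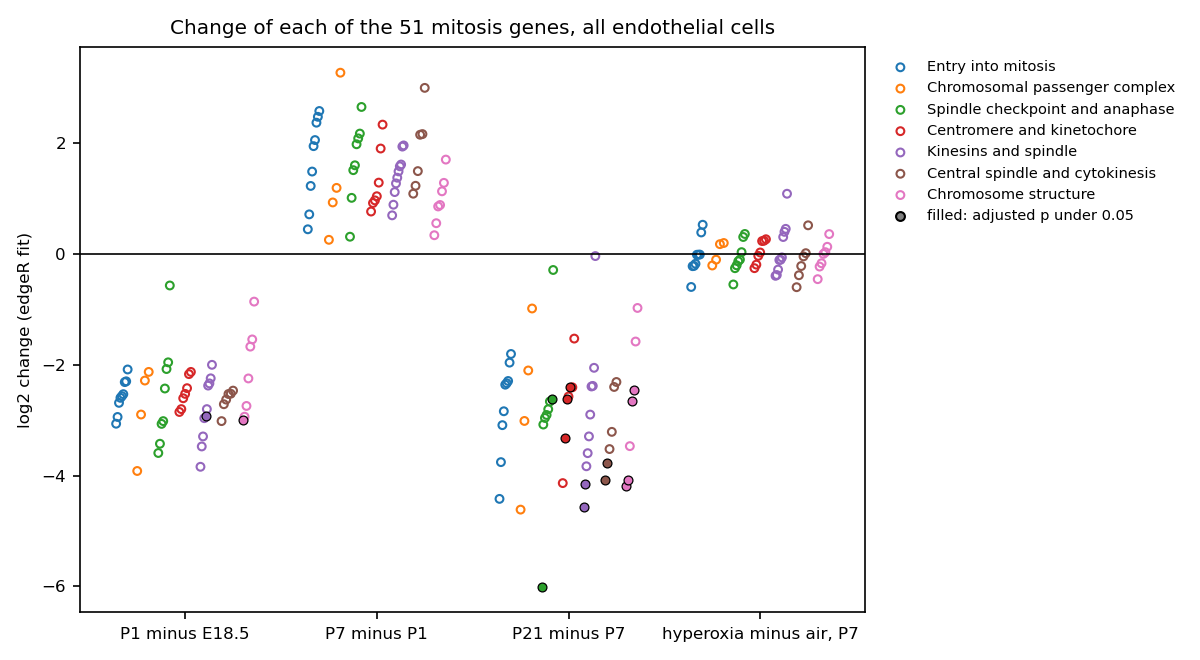
Fitted log2 change (y axis) of each of the 51 genes in 4 comparisons over all endothelial cells (x axis), coloured by role; filled points had an adjusted p under 0.05 in edgeR. All 51 points are below 0 for P1 minus E18.5 and P21 minus P7 and above 0 for P7 minus P1, and they lie around 0 (median -0.04) for hyperoxia.

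Hyperoxia at P7 left no detectable difference in any member. The median change was -0.04 on the log2 scale, with 21 members higher and 30 lower, 0 called and 0 with an unadjusted p under 0.05 in edgeR, and 0 called in DESeq2. Over all genes 2.45% were higher and 2.61% lower at an unadjusted p under 0.05, and none was called. Cdk1 stood at 198 and 210 CPM against 200 and 201 CPM in normal air, Ccnb1 at 56.8 and 30.8 against 62.1 and 35.6 CPM, and Top2a at 192 and 274.5 against 184 and 263 CPM. In these 3 genes the groups overlapped. Without overlap between the groups, 9 members were higher in hyperoxia and 4 lower, against 18.4% and 15.3% of all genes. The median SE was 0.85 on the log2 scale. A change would have to be well above its SE to be called, so larger changes than this could also go undetected in a typical member. The largest fitted change was that of Kif18b, 1.09 ± 1.27 (adjusted p = 1.00, edgeR). Between the male mice, which share a run, the median of the members was 0.02. In the fit it was 0.30 without the female P7 mouse and -0.29 without the male P7 mouse.

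Inside the Proliferative EC label no single member could be told apart between E18.5 and P7. From E18.5 to P7 0 of the 51 members were called by edgeR or DESeq2 over 13102 genes, where 0.0382% of all genes were called higher and 0.00763% lower. An unadjusted p under 0.05 was found for 4 members, all lower, where 2.83% of all genes were lower and 2.42% higher. The median change was -0.27 (median SE 0.52) with 33 members lower and 18 higher, and the median was -0.52 without the female P7 mouse and -0.16 without the male. Mki67 had the lowest fitted change, -1.39 ± 0.52 (adjusted p = 0.893, edgeR), with 2226 and 784 CPM at E18.5 and 668 and 496 at P7. Cks2, the small partner of Cdk1, stood at 270 and 410 CPM and at 123 and 162 CPM. The mice did not overlap in either gene, but the E18.5 mice differed from each other more than the P7 mice did. Without overlap between the groups, 15 members were lower at P7 and 6 higher, against 21.2% and 19.1% of all genes.

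Within the label, hyperoxia against normal air at P7 gave 39 members higher and 12 lower, a median change of 0.12, 0 called and 0 with an unadjusted p under 0.05 in edgeR, and 0 called in DESeq2. Over all genes 1.18% were higher and 1.40% lower at an unadjusted p under 0.05. The mice did not overlap in 14 members, all higher in hyperoxia, where 16.6% of all genes did not overlap in that direction. Between the male mice, which share a run, 45 of the 51 were higher in hyperoxia, with a median of 0.57. The median of the members in the fit was -0.01 without the male hyperoxia mouse, 0.06 without the male P7 mouse, 0.37 without the female hyperoxia mouse and 0.42 without the female P7 mouse. The median number of members per cell was 40.5 and 39 in the hyperoxia mice, and 31 and 40 in the female and male mouse in normal air.

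The 7 Proliferative EC cells of the male P21 mouse gave the highest level of all mice for 22 of the 51 members. Their members summed to 34790 CPM, against 17450 to 24880 CPM in the Proliferative EC of the other 8 mice. Ccna2, the cyclin A2 of S phase and mitotic entry, stood at 1973 CPM there and at no more than 658 CPM in any other mouse. With 7 cells and no second mouse, nothing was tested. The 10 Proliferative venous EC cells, 5 in each hyperoxia mouse, had medians of 43 and 40 members and summed to 20210 and 14960 CPM.

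The 103 cells with 10 or more members outside the proliferative labels were not spread evenly over the subtypes. Lymphatic EC had the highest share, 25 of 82 cells (30.5%, exact 95% interval 20.8 to 41.6%). Nonproliferative embryonic EC had 31 of 311 (9.97%), Venous EC 14 of 201 (6.97%) and Early Car4- capillaries 26 of 837 (3.11%). Car4+ capillaries, the wide thin cells of gas exchange, had 3 of 332 (0.904%), and Late Car4- capillaries 1 of 622 (0.161%). Arterial EC I had 2 of 93 and Arterial EC II 1 of 42. These intervals cover counting error only, since cells of 1 mouse share their source, and shares of 2 mice against 2 cannot give an exact p under 0.333.

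**Figure D5:**
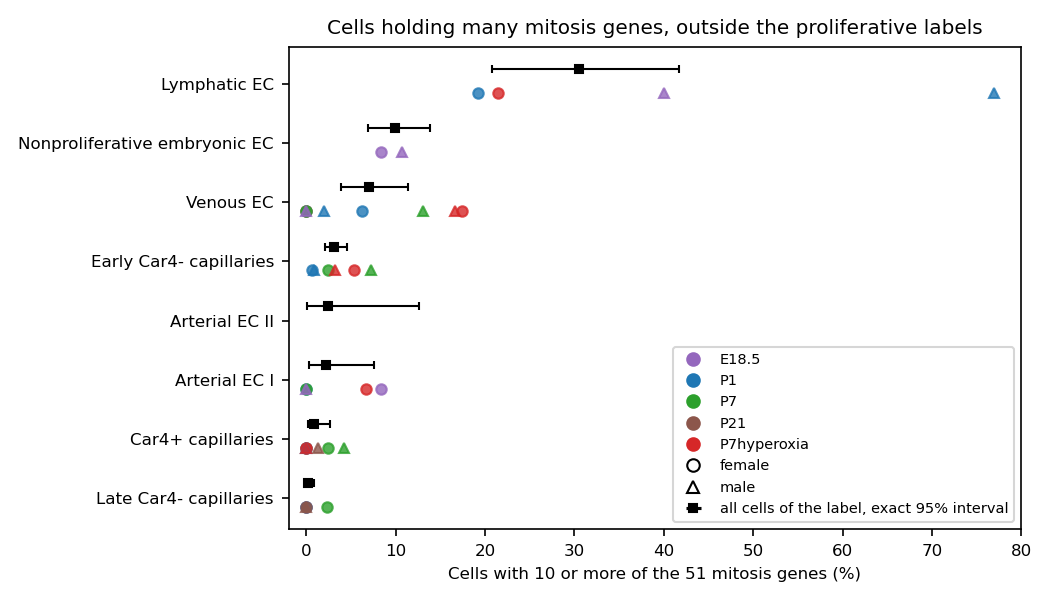
Share of cells with 10 or more of the 51 genes at 50000 reads (x axis, percent) for each subtype outside the proliferative labels (y axis). Black squares pool all cells of the label, with exact 95% intervals; coloured circles (female) and triangles (male) are mice with at least 10 cells of the label, so Arterial EC II has none. Lymphatic EC is highest at 30.5%, with the male P1 mouse at 76.9%.

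In Lymphatic EC, 10 of the 25 cells came from the male P1 mouse (10 of its 13) and 5 from the female P1 mouse (5 of 26). The male E18.5 mouse had 4 of 10, the female and male hyperoxia mice 3 of 14 and 1 of 6, the male P7 mouse 2 of 5, and the P21 mice 0 of 5 cells between them. Without the male P1 mouse the share was 15 of 69 (21.7%, interval 12.7 to 33.3%). Prox1, the master gene of lymphatic identity, was read in 92.0% of the 25 cells and in 94.7% of the other 57, and 6 lymphatic markers summed to 9529 and 9513 CPM. The 25 cells had a median of 34 members, close to the 36 of the proliferative labels, and 4943 detected genes at 50000 reads against 3536 in the other 57. The cells with 10 or more members also had more detected genes in other labels. In Venous EC they had 4242 against 3369, and in Early Car4- capillaries 3789 against 2749. In Nonproliferative embryonic EC they had 2904 against 2206. The 1 such cell of Late Car4- capillaries had 718 against 1469. Whether doublets have a part in any of these labels was not tested.

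In Venous EC the cells past this line were 4 of 23 and 5 of 30 in the hyperoxia mice, and 0 of 21 and 3 of 23 in the P7 mice of normal air. At P1 they were 1 of 16 and 1 of 50. The 10 cells labelled Proliferative venous EC came on top of these in the hyperoxia mice. In Early Car4- capillaries both P1 mice were low, with 1 of 159 and 1 of 120 cells, and the P7 mice had 4 of 162 and 8 of 111. The hyperoxia mice, with 8 of 151 and 4 of 126, overlapped with those of normal air.

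The members read in these cells are set beside those of the labelled ones. In the 78 such cells that were not lymphatic, Smc4 was read in 88.5%, Top2a in 74.4% and Cdk1 in 73.1%, but Ccnb1 in 10.3%, Hmmr in 8.97% and Plk1 in 7.69%. In the proliferative labels these shares were 92.8%, 92.8% and 85.2%, and 61.0%, 59.8% and 59.8%. The 25 lymphatic cells had Plk1 in 56.0% and Ccnb1 in 28.0%. In P21 Late Car4- capillaries, where fewer genes were detected per cell than in the proliferative labels, Plk1 was read in 0.375% and Hmmr in 0%. By role, the median gene of chromosome structure was read in 51.3% of the 78 cells, and the median gene of entry in 16.7% and of the kinesins in 15.4%. In the proliferative labels these medians were 88.0%, 71.25% and 63.0%, and in the cells below the line 5.63%, 1.61% and 1.365%. Chromosome structure was the highest of the roles in each of these classes. All 103 cells had a median of 18 of 26 S phase genes, against 12 in the proliferative labels and 2 in the 2417 cells below the line.

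Cells with 10 to 25 members were then set side by side, since the classes differ in their number of members: 80 outside the labels (median 12) and 85 inside (median 18). Cenpf was read in 16.2% outside and 58.8% inside, Tpx2 in 13.8% and 51.8%, Birc5 in 33.8% and 68.2%, and Ccnb2, the other mitotic cyclin B, in 25% and 57.6%. In the other direction stood Bub3 (85.0% and 58.8%), Ncaph (47.5% and 30.6%), Cdk1 (70.0% and 56.5%) and Smc2 (76.2% and 63.5%). Top2a was alike at 75% and 77.6%. The S phase genes had medians of 17 outside and 7 inside. Because the numbers of members chose the cells, these are descriptions with no test.

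Summed over all cells outside the proliferative labels, the mitosis genes had smaller median changes in the first postnatal steps than over all cells; the difference between these sums was not tested. These medians rest in part on Lymphatic EC. Without that label, an alternative chosen after the data were seen, the median was -1.35 from E18.5 to P1 and 0.48 from P1 to P7. In the first of these steps 0 members were called and 12 had an unadjusted p under 0.05. The share of all genes in that fit is not given here. With Lymphatic EC kept, the median from E18.5 to P1 was -0.39, with 37 members lower and 14 higher. Of the 51, 0 were called by edgeR over 16066 genes, and DESeq2 called 1. An unadjusted p under 0.05 was found for 2, 1 in each direction. Over all genes 0.0124% were called lower and 0.436% higher, and 2.85% were lower and 6.27% higher at an unadjusted p under 0.05. Without overlap between the groups, 16 members were lower and 5 higher, against 15.2% and 19.7% of all genes. With 1 mouse left out this median lay between -0.68 (without the female E18.5 mouse) and -0.13 (without the male). Between the female mice of E18.5 and P1, which share a run, it was -0.11, with 24 members higher and 27 lower. From P1 to P7 the median was 0.07 (-0.32 without the female P1 mouse), with 0 called by edgeR or DESeq2 and 1 higher at an unadjusted p under 0.05, where 5.20% of all genes were higher and 4.34% lower. Under hyperoxia it was 0.23, with 0 called by edgeR or DESeq2 and 0 at an unadjusted p under 0.05, where 2.51% of all genes were higher and 2.64% lower. Between the male mice of that comparison, which share a run, the median was -0.22, with 20 members higher and 31 lower.

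From P7 to P21 the sums over cells outside the labels fell, with 45 of 51 members lower and a median of -2.02. In edgeR 3 were called, where 0.293% of all genes were called lower. Another 19 were lower at an unadjusted p under 0.05 (22 in all, where 5.49% of all genes were). Part of these sums lay in the cells past the line of member number used above. They held 14.7% and 45.7% of the member reads outside the labels in the female and male P7 mouse, and 0% and 7.76% at P21. In the cells below the line the members summed to 774 and 596.5 CPM at P7, and to 485 and 551 CPM at P21. A fall in those cells alone was not tested. Cdc20 (chr4:118432901-118437352) stood at 28.9 and 18.02 CPM at P7 and at 0.827 and 1.22 CPM at P21, a fall of 4.43 ± 0.73 (log2, SE; adjusted p = 0.0164, edgeR). Ncapd2 stood at 20.2 and 21.5 CPM and at 1.98 and 1.25 CPM, a fall of 3.62 ± 0.66 (adjusted p = 0.0271, edgeR). In both genes the P21 mice were low and close together, and the proliferative cells of the male had no part in it.

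The third, named after its values were seen, was Aurkb, which had 2444 and 307 reads at P7 and 2 reads and 1 read at P21 (9.03 and 6.45 against 0.00758 and 0.00544 CPM; adjusted p = 0.0166, edgeR). Its reads at P21 are too few for a fold. Without the Lymphatic EC 1 member was called, and the count also fell without the female P7 or the female P21 mouse. The median change was -1.59 without the Lymphatic EC, -3.14 without the male P21 mouse and -1.39 without the male P7 mouse. The male mice of P7 and P21, which share a run, had 45 members lower at P21 with a median of -1.73.

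The 3 members with the lowest shares of reads inside the labels had these levels outside them. Bub3 stood at 287 and 210 CPM at P7 and at 217 and 272 CPM at P21, and the mice overlapped. Smc4 stood at 63.0 and 116 CPM at P7 and at 80.8 and 55.4 CPM at P21. Ncaph stood at 96.2 and 118 CPM at P7, 43.8 and 32.0 CPM at P21, and 174 and 93.0 CPM in hyperoxia, and its fall to P21 had an unadjusted p of 0.00474 and an adjusted p of 0.226 in edgeR.

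Other genes of the pathway, 60 further mitosis genes such as Foxm1, the transcription factor of late cell cycle genes, were tested in the same fits. Over all cells, 4 of the 60 were called lower at P1 than at E18.5 (median -2.36) and 15 of 60 at P21 than at P7 (median -3.08) in edgeR. In hyperoxia 26 of the 60 were higher and 34 lower (median -0.03). All 26 S phase genes were lower at P1 than at E18.5 (median -1.64), and 10 were called lower from P7 to P21 (median -2.17). Outside the proliferative labels all 26 S phase genes were lower at P1 than at E18.5 (median -1.13) and higher at P7 than at P1 (median 0.82), without a call in edgeR.

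Exons of 14 members overlap those of another gene in GENCODE M21, 12 of them on the opposite strand, and a count without strand cannot separate such pairs. Cdc20 with Elovl1, Nusap1 with Oip5 and Ncapg with Lcorl are pairs of this kind among the genes named above.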

How the data were processed

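The deposited table holds raw read counts per gene and cell, made by the authors with STAR 2.5.2b and HTSeq 0.10, per the submitters' processing notes, which name the build GRCh38 although the symbols are those of mouse. It holds no molecular identifiers, so PCR copies were counted and intervals cover counting error only. Subtype, age, treatment, sex, mouse and gate were taken from the labels, and the run is an unexplained code of the cell title. The 51 members and all lists were chosen with earlier results of these data known.

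Counts were summed per mouse (2 mice a group) over all cells, over Proliferative EC and over cells outside the proliferative labels (at least 8 cells a mouse), and tested with edgeR 4.0.16 (TMM, filterByExpr, quasi-likelihood, Benjamini-Hochberg over all genes tested, threshold 0.05), in 1 model per class. The p-values measure the spread between these mice. In every group the 2 mice differ in sex, and their CD31-gate cells differ in run. The spread within a group therefore cannot be told apart from differences of sex or run. SE is the log2 change divided by the root of F. CPM are counts scaled to 1000000 reads. Genes were named where called, not overlapping between mice and at least 20 CPM in the higher group, up to 6 per direction. Other genes were shown as examples of each role or as the ends of the read shares. Gene positions are from GENCODE M21 (GRCm38), and promoters from RefSeq. The scripts were tested on simulated counts. Shares have exact (Clopper-Pearson) 95% intervals, and a share of 0 the limit of 3 cells.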

Additional observations from a re-analysis of the deposited data

How the results depend on the processing

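No change of a named gene reversed under an alternative, but the counts of called members moved. Over the 4 ages 38 were called with each cell thinned to 50000 reads, and 12 to 48 with 1 mouse left out (18 without the female P7 mouse). For P1 against E18.5 the count was 1 with CD31-gate cells, 26 with DESeq2 1.42.0, 5 with genes of at least 1 read, 7 with sex as a block and 14 after thinning, and 0 to 36 with 1 mouse left out. For P7 against P1 it was 1 with DESeq2 and 0 to 1 with 1 mouse left out. For P21 against P7 it was 6 with CD31-gate cells and 23 with DESeq2, and 2 to 41 with 1 mouse left out. Outside the proliferative labels DESeq2 called 1 at P1 against E18.5. At P21 against P7 outside the labels the count was 16 with DESeq2, 6 after thinning, 1 without Lymphatic EC (chosen after the data were seen) and 0 to 3 with 1 mouse left out. The shares of all genes called under these alternatives are not given here. These counts therefore do not set the members apart from other genes. The cause was not tested. Of cells outside the labels, 204 had at least 7 members and 50 at least 15. Over all cells, Kif15 and Ncapd2 passed for P21 against P7 in all 16 alternatives, Ncapg in 15, Nusap1 in 14, Cenpe in 13 and Anln in 4. Top2a passed for P1 against E18.5 in 14 of 16 and Kif15 in 11. Outside the proliferative labels, Cdc20 passed for P21 against P7 in 13 of 17 alternatives and Ncapd2 in 12. With 2 mice a group, changes of members with few reads were detectable only where large. Sex as a block moved no other count of calls by over 1.5 times.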
